A study of Homo sapiens with 30 samples.

Results

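The chromatin of 10 genes of the unfolded protein response was followed in OCI-Ly1 cells: ERN1, ATF6, EIF2AK3, HSPA5, HSP90B1, DNAJB9, ATF4, DDIT3, ATF3 and HERPUD1. The genes were chosen by 1 measured value, the rise of an H3K27ac peak inside ERN1 at 500 nM against DMSO in these libraries, so the H3K27ac values of ERN1 are given as a description and were not tested. They are 10 of 59792 genes in the RefSeq table of GRCh38.p14, and a peak was assigned to a gene when it lay inside the gene or within 5000 bp of it. This gave 17 of 21268 H3K4me3 peaks and 45 of 63580 H3K27ac peaks, and no peak was assigned to 2 of the genes. The filter on low counts kept 16 of the 17 and 36 of the 45. The 10 peaks below it had mean counts of 4 to 8.33 per library and were not analysed further.

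OCI-Ly1 is an established human line of diffuse large B-cell lymphoma, and these data describe that 1 line. The cells received 150 nM or 500 nM of JIB-04, a compound that blocks histone demethylases of the Jumonji family, and the control cells received the vehicle, DMSO at 0.01%. H3K4me3, a methylation mark of active promoters, and H3K27ac, an acetylation mark of active promoters and enhancers, were measured by chromatin immunoprecipitation and sequencing (ChIP-seq), with 2 libraries per treatment and mark. The labels number the replicates without saying whether they were separate cultures, so a p-value measures the spread between these libraries, which may be technical, and they give no duration of treatment. Levels are given in CPM, the read count of a peak scaled to the library's total over the tested peaks after TMM normalization.

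The unfolded protein response is set off when misfolded proteins build up in the endoplasmic reticulum. A set of 3 sensors spans its membrane: ERN1 (IRE1-alpha), a kinase and nuclease that splices XBP1 mRNA, EIF2AK3 (PERK), a kinase that slows translation and favours translation of ATF4 mRNA, and ATF6, which is cut in the Golgi to release a transcription factor. Their outputs include the chaperones HSPA5 (BiP), HSP90B1 (GRP94) and DNAJB9 (ERdj4), the degradation factor HERPUD1, and the transcription factors ATF4, DDIT3 (CHOP) and ATF3, which also answer to other stresses that act through ATF4. B cells depend on this response when they turn into antibody-secreting plasma cells.

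The promoter sequences below are shown to set the known response elements beside the starts. Those of HSPA5, HSP90B1 and HERPUD1 hold elements that ATF6 and XBP1 are known to read. Those of ERN1 and DDIT3 hold no exact match to the 5 motifs searched. H3K4me3 rose at the starts of ERN1, DDIT3 and HERPUD1. The windows of ATF6, EIF2AK3, DNAJB9 and ATF4, not printed, hold no exact match either. H3K4me3 at their starts was not called against DMSO. Each is the run of 250 bases before the start listed by RefSeq (GRCh38.p14), 5′ to 3′ on the strand of the gene, and capitals mark a motif match. The windows lie at chr17:64130145-64130394 (ERN1, minus strand), chr12:57520518-57520767 (DDIT3, minus), chr16:56931892-56932141 (HERPUD1, plus), chr9:125241344-125241593 (HSPA5, minus) and chr12:103930160-103930409 (HSP90B1, plus).
ERN1: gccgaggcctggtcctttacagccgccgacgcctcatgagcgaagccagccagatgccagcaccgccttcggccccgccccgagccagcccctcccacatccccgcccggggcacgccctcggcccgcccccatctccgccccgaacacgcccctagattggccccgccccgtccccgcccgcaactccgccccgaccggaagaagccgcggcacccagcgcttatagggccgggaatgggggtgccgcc
DDIT3: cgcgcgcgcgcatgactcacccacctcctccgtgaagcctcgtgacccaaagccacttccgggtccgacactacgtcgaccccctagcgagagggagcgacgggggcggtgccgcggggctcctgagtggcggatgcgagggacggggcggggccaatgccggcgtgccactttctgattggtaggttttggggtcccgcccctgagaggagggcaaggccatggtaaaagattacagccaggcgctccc
HERPUD1: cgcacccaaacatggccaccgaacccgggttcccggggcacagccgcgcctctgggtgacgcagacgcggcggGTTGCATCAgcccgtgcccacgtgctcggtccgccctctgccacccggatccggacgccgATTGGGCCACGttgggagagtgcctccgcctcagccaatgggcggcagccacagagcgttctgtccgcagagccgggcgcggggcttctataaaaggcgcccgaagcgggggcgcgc
HSPA5: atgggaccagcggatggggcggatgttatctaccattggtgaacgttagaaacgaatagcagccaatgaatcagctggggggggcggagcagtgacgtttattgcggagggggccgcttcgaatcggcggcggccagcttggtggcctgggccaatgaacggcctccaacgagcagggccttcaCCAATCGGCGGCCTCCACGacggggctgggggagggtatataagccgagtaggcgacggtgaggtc
HSP90B1: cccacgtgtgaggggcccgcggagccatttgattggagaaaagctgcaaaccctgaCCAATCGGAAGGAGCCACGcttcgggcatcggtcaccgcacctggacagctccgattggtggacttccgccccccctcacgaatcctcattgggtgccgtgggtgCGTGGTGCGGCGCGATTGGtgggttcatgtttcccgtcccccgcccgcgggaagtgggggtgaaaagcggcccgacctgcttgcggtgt

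Both strands were searched for exact matches to 5 motifs, with N for any base. An element that differs at any other letter is therefore not listed. The DDIT3 window, for example, holds ccaatgccggcgtgccact, which differs from the first motif below in its last letter. The endoplasmic reticulum stress element (ERSE, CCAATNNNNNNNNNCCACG), which binds NF-Y together with ATF6 or XBP1, was found in 0.0740% of 35116 RefSeq windows of this length. Among the 10 genes it was found in HSPA5 at positions -66 to -48 from the start and at 2 places in HSP90B1, -194 to -176 and -89 to -71. The element ERSE-II (ATTGGNCCACG), present in 0.0513% of windows, was found in HERPUD1 at -117 to -107. The composite element of ATF4 and C/EBP factors (TGATGNAAN), present in 3.13% of windows, was found in HERPUD1 at -177 to -169 and in the window of the upstream ATF3 start at -191 to -183. The core of the unfolded protein response element (TGACGTGG, 0.612% of windows) and the cyclic AMP response element (TGACGTCA, 1.65%) had no match in the windows of the 10 genes. The main ATF3 H3K4me3 peak covers no listed start, so the sequence there was not searched. The matches in HSP90B1 at -89 to -71 and of the composite element in HERPUD1 are on the opposite strand, and no 2 matches overlap. A match is a sequence description and not a measured binding site. By base composition the windows of the 10 genes held 44.8% to 75.2% G and C against a median of 58% over all windows, with ERN1 the highest and the downstream ATF3 start the lowest.

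The total count in peaks was 9686420 to 12327122 per H3K4me3 library and 4360660 to 5410292 per H3K27ac library. In H3K27ac the 2 libraries of 150 nM stood apart from each other: their chi-square per degree of freedom over peaks was 2.39, against 1.32 for the DMSO pair and 1.25 for the 500 nM pair. The 2 H3K4me3 libraries of 150 nM differed by no more than sampling noise (0.923), as did DMSO replicate 1 and 150 nM replicate 1 (0.952), which are of different groups. They were kept as 2 libraries, and with their counts taken as 1 sample the H3K4me3 calls of the 10 genes numbered 7 for 500 nM against DMSO, 0 for 150 nM against DMSO and 6 between the doses. The cells carried the marks of B cells: CD79A, CD79B, MS4A1, PAX5 and BCL6 had H3K4me3 peaks, at 122.2 to 498.5 CPM per gene in DMSO. Of the plasma cell markers PRDM1 had 52.9 CPM and SDC1 2.79 CPM of H3K4me3. Of the T cell and myeloid markers CD3D (27.2 CPM) and CD14 (10.7 CPM) had H3K4me3 peaks and CD3E, CD2, CSF1R and LYZ had none tested, although CD2 (111.6 CPM), LYZ (33.0 CPM) and CD3E (7.49 CPM) had H3K27ac.

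In the deposited consensus peaks, 9 of the 10 genes had an H3K4me3 peak over a listed start. For ATF3 the strongest peak lay 41448 to 44704 bp inside the gene and covered neither of the 2 listed starts. Per kilobase of the peak, DNAJB9 had the highest H3K4me3 level, at 56.8 and 57.9 CPM per kb in the DMSO libraries, followed by HSPA5 at 46.2 and 47.8 and ATF4 at 45.3 and 45.8. EIF2AK3 (38.0 and 38.5) and DDIT3 (38.8 and 37.7) overlapped in level, and HSP90B1 was the lowest, at 19.1 and 18.2. ERN1 stood at 29.3 and 32.9, a range that HERPUD1 (28.3 and 28.6) fell just below, while ATF6 (23.7 and 22.6) and ATF3 (22.4 and 22.8) overlapped. Several of these peaks also cover a second transcript: THAP5 beside DNAJB9, the divergent transcripts ATF6-DT, EIF2AK3-DT and HSPA5-DT, TTC41P and MIR3652 at HSP90B1, and MIR616 at DDIT3. Reads there cannot be divided between the genes.

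At 500 nM JIB-04, H3K4me3 rose over the starts of ERN1, DDIT3 and HERPUD1 and in the main peak of ATF3, by 21.1% to 47.6% in mean CPM. It did not pass the test at the starts of the other 6 genes, which are the other 2 sensors, the 3 chaperones and ATF4. In all, 7 of 16 tested peaks were called at an adjusted p under 0.05, 6 higher and 1 lower, by the quasi-likelihood test of edgeR with Benjamini-Hochberg adjustment over all 20402 tested peaks. Over all tested peaks 39.4% were called, 20.7% higher and 18.7% lower, so the count of calls in either direction is near the background. Among the 8378 peaks with a mean of at least 50 CPM, 7.28% were higher and 28.1% lower, and the 11 such peaks of the 10 genes held 4 that were higher and 1 that was lower. The median log2 fold change of those 11 was 0.08, against -0.05 for the 8378.

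**Figure D1:**
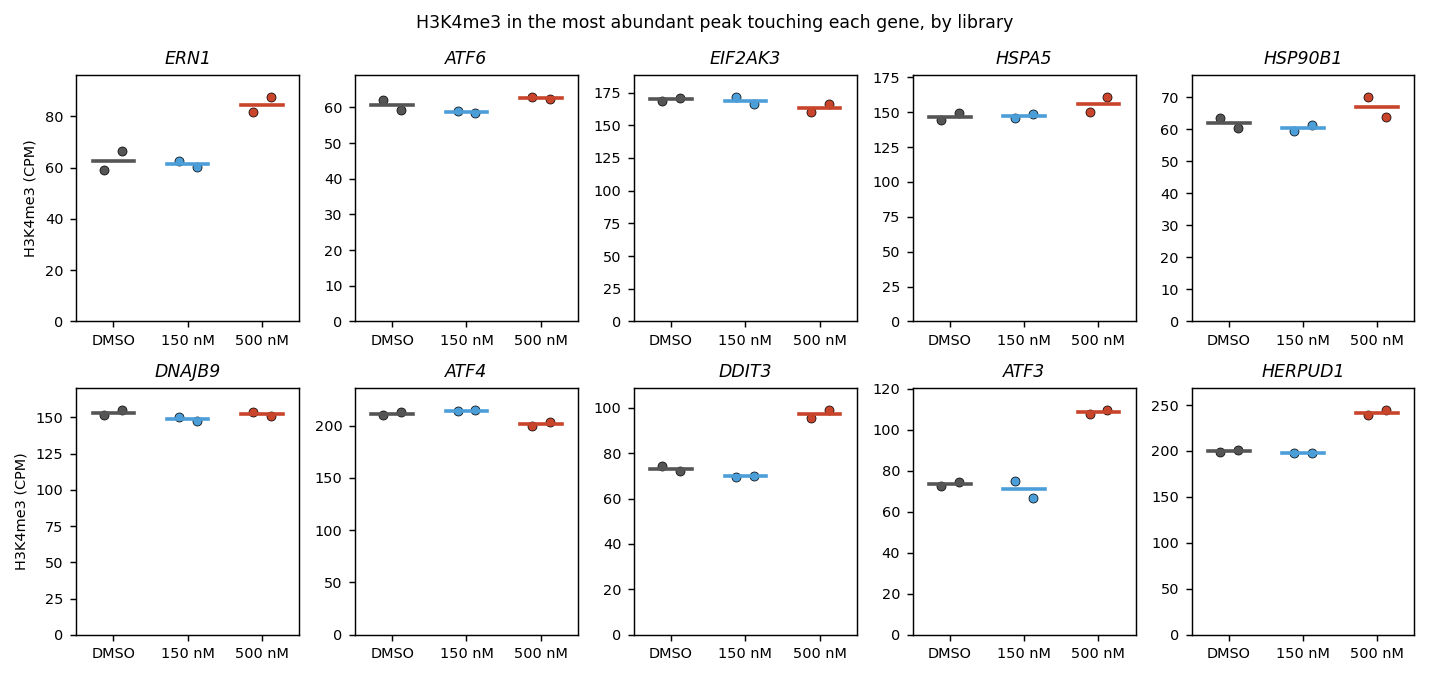
H3K4me3 level (CPM, vertical axis from 0) in the most abundant peak touching each of the 10 genes, for DMSO, 150 nM and 500 nM JIB-04; points are the 2 libraries of a group and lines their means. The 500 nM libraries of ERN1 (81.6 and 87.5), DDIT3, ATF3 and HERPUD1 stand above all libraries of DMSO and 150 nM, while those of ATF4 (199.5 and 203.8) stand below them.

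Of the 3 sensors, ERN1 was called and ATF6 and EIF2AK3 were not; whether genes differed in their change was not tested. Its H3K4me3 peak (chr17:64128904-64130919, GRCh38, positions -775 to 1240 from the listed start) had 59.1 and 66.3 CPM in the DMSO libraries, 62.5 and 60.4 in those of 150 nM and 81.6 and 87.5 in those of 500 nM. Both 500 nM libraries were above the other 4, and DMSO and 150 nM overlapped. The log2 fold change of 500 nM against DMSO was 0.43 ± 0.05 (SE, edgeR adjusted p = 3.34e-10). The start peak of ATF6 (chr1:161764702-161767322) had 62.1 and 59.3 CPM with DMSO, against 58.9 and 58.4 with 150 nM and 62.9 and 62.4 with 500 nM, a log2 fold change of 0.04 ± 0.05 (edgeR adjusted p = 0.56). The 6 ATF6 libraries lay between 58.4 and 62.9 CPM. The start peak of EIF2AK3 (chr2:88624431-88628874) had 168.9 and 171.0 CPM in the DMSO libraries, 171.6 and 166.0 in those of 150 nM and 160.4 and 166.1 in those of 500 nM, a log2 fold change of -0.06 ± 0.03 (edgeR adjusted p = 0.171). A pair of low peaks of ATF6, at means of 6.67 and 28.5 counts per library, did not pass the test.

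None of the chaperone starts was called at 500 nM against DMSO. HSPA5 (chr9:125239504-125242625), which encodes the main chaperone that holds the sensors inactive, had 144.3 and 149.2 CPM with DMSO, against 145.6 and 149.0 with 150 nM and 150.4 and 160.8 with 500 nM. The 500 nM libraries lay just above the DMSO libraries, with a log2 fold change of 0.08 ± 0.04 and an edgeR adjusted p of 0.0664. HSP90B1 (chr12:103928672-103932006), the Hsp90 chaperone of the endoplasmic reticulum, had 63.7 and 60.6 CPM in the DMSO libraries, 59.5 and 61.2 in those of 150 nM and 70.1 and 63.8 in those of 500 nM, a log2 fold change of 0.11 ± 0.05 (edgeR adjusted p = 0.09). DNAJB9 (chr7:108568621-108571292), a co-chaperone of HSPA5, had 151.7 and 154.8 CPM with DMSO, against 150.0 and 147.5 with 150 nM and 153.4 and 150.5 with 500 nM. Its 500 nM and DMSO libraries overlapped, and both 150 nM libraries were below them. A low peak inside HSPA5 (chr9:125238905-125239427, a mean of 21.7 counts per library) had a log2 fold change of -0.04 and did not pass the test. The call for the starts of HSPA5 and HSP90B1 turned on the processing: HSPA5 was called higher under 5 of 15 alternatives and HSP90B1 under 4, with log2 fold changes between 0.03 and 0.17.

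Of the 3 transcription factors, DDIT3 and ATF3 passed the test and ATF4 did not. DDIT3, which promotes cell death under lasting stress, had an H3K4me3 peak over its start (chr12:57518742-57520653) with 74.1 and 72.1 CPM in the DMSO libraries, 69.7 and 70.1 in those of 150 nM and 95.6 and 98.9 in those of 500 nM. The 500 nM libraries were above all others, with a log2 fold change of 0.41 ± 0.05 (edgeR adjusted p = 5.09e-11). ATF3 showed the largest rise among the abundant peaks, from 72.8 and 74.4 CPM in DMSO, and 75.2 and 66.6 at 150 nM, to 107.7 and 109.6 at 500 nM (chr1:212606855-212610111). Its log2 fold change was 0.56 ± 0.05 (edgeR adjusted p = 1.48e-15). ATF4, whose protein activates DDIT3 and ATF3, had 210.3 and 212.6 CPM with DMSO, against 213.6 and 214.6 with 150 nM and 199.5 and 203.8 with 500 nM over its start (chr22:39518993-39523630). The 500 nM libraries of ATF4 were the lowest of the 6, with a log2 fold change of -0.07 ± 0.03 that did not pass the test (edgeR adjusted p = 0.0761) and that ran from -0.09 to 0.02 over the alternatives.

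The neighbouring peak beyond the start of DDIT3 went the other way. It lies 353 bp outside DDIT3 and over MBD6 (chr12:57520870-57524864), and had 74.6 and 72.2 CPM in the DMSO libraries, 72.6 and 72.3 in those of 150 nM and 68.4 and 60.2 in those of 500 nM. Its log2 fold change was -0.19 ± 0.05 (edgeR adjusted p = 0.00318), and it was no longer called without 500 nM replicate 2, where it was -0.11, or with DESeq2. A second, low peak of ATF3 near the upstream start (chr1:212566672-212567445) rose from 4.16 and 3.73 CPM to 6.29 and 5.31, with 4.57 and 4.93 at 150 nM (log2 fold change 0.56 ± 0.21, edgeR adjusted p = 0.0288). That call was lost in 5 of 15 alternatives, among them leaving out DMSO replicate 1, DMSO replicate 2 or 500 nM replicate 1.

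HERPUD1, which brings misfolded proteins to the degradation complex, had the longest of the risen peaks. Over its start (chr16:56930741-56937764) H3K4me3 was 198.4 and 200.7 CPM with DMSO, against 197.3 and 198.2 with 150 nM and 238.9 and 244.3 with 500 nM, a log2 fold change of 0.28 ± 0.03 (edgeR adjusted p = 4.88e-11). The DMSO and 150 nM libraries differed by under 4 CPM. A small peak further inside (chr16:56938654-56938957) had 5 and 8 counts with DMSO, 4 and 11 with 150 nM and 19 and 14 with 500 nM. It was called higher (log2 fold change 1.38 ± 0.48, edgeR adjusted p = 0.0167), and the call was lost without DMSO replicate 1, without 500 nM replicate 1, under loess offsets and with DESeq2. The rises at the starts of ERN1, DDIT3 and HERPUD1 and in the main peak of ATF3 were called in 15 of 15 alternatives, with log2 fold changes between 0.26 and 0.61.

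At 150 nM no H3K4me3 peak of the 10 genes was called against DMSO. edgeR called 0 of 16, and 0 had an unadjusted p under 0.05. DESeq2 called 0 as well, and the background was 0% of all tested peaks called and 4.66% at an unadjusted p under 0.05. The log2 fold changes ran from -0.25 to 0.26 with a median of -0.02. Between the doses, 500 nM against 150 nM, 8 of 16 were called, 6 higher and 2 lower, beside a background of 39.2% (20.5% higher and 18.6% lower). The higher ones were the start peaks of ERN1, DDIT3 and HERPUD1, the main ATF3 peak, the small HERPUD1 peak and HSP90B1 (log2 fold change 0.16 ± 0.05, edgeR adjusted p = 0.0164). The lower ones were the peak over MBD6 and ATF4 (-0.09 ± 0.03, edgeR adjusted p = 0.0226). The ATF4 call was lost in 8 of 15 alternatives, among them leaving out either 150 nM library or 500 nM replicate 1, and with loess offsets ATF4 was at 0.0070. The call of the peak over MBD6 was lost in 4 of 15, among them leaving out either 150 nM library or 500 nM replicate 2, that of HSP90B1 in 3 of 15, among them leaving out 150 nM replicate 1 or 500 nM replicate 1, and that of the small HERPUD1 peak in 9 of 14, among them leaving out any 1 library other than 150 nM replicate 2. Without 150 nM replicate 1 the count was 4. The comparison shares its 500 nM libraries with the one against DMSO and is no separate evidence for them, and the comparisons of both doses with DMSO share the DMSO libraries.

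**Figure D2:**
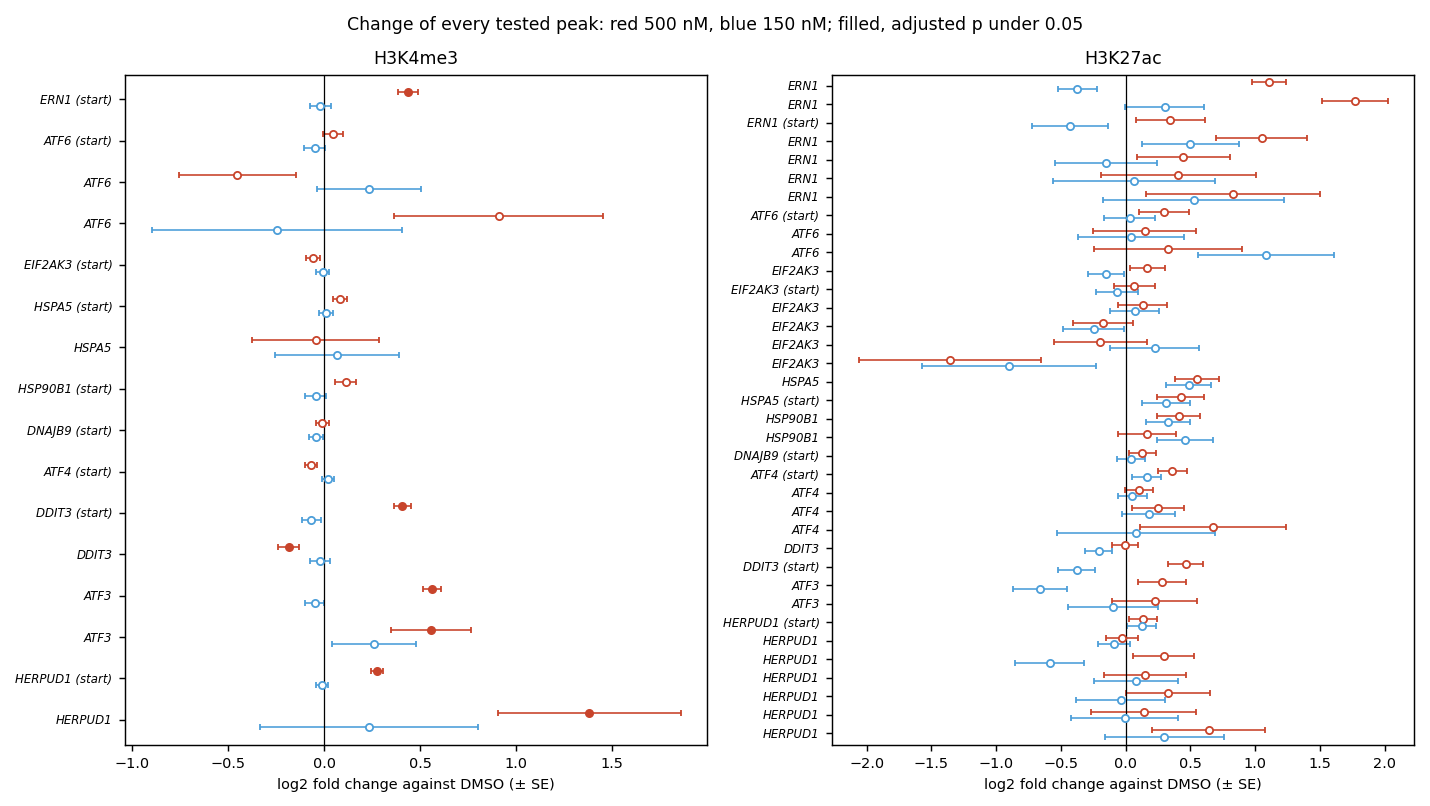
Log2 fold change against DMSO with its standard error (horizontal axis) for each tested H3K4me3 peak (left) and H3K27ac peak (right) of the 10 genes, red for 500 nM and blue for 150 nM, filled where the adjusted p was under 0.05 and marked "start" where the peak covers a listed start; within a gene, peaks run from most to least abundant. The 7 filled points are all H3K4me3 at 500 nM, and the H3K27ac peaks of ERN1 are open because they were not tested.

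The H3K27ac peaks of ERN1, 1 of which chose the genes, lay in 3 stretches: around the start, 8895 to 9151 bp inside the gene, and 47211 to 67060 bp inside it. The peak with the largest difference (chr17:64081767-64082933, 47211 to 48377 bp inside) had 3.68 and 5.62 CPM in the DMSO libraries, 6.59 and 5.09 in those of 150 nM and 16.8 and 15.4 in those of 500 nM. Its 500 nM mean was 3.47-fold that of DMSO (log2 fold change 1.77 ± 0.25). The most abundant peak (chr17:64073601-64077615, 52529 to 56543 bp inside) had 34.5 and 32.3 CPM with DMSO, against 28.3 and 23.4 with 150 nM and 65.7 and 78.2 with 500 nM. In it the 150 nM libraries were the lowest and the 500 nM libraries the highest, with a log2 fold change of 1.11 ± 0.13 at 500 nM and of -0.37 at 150 nM, both against DMSO. The third peak of that stretch (chr17:64063084-64063620) had 2.53 and 3.61 CPM in the DMSO libraries, 3.82 and 4.90 in those of 150 nM and 5.09 and 7.82 in those of 500 nM. These 3 peaks, with no H3K4me3 peak overlapping them, were the ones whose 500 nM and DMSO libraries did not overlap. The same separation was seen in 16 of the 29 tested H3K27ac peaks of the other 9 genes. The share over all tested peaks was not counted, so these counts cannot show whether the separation is unusual.

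At the ERN1 start the H3K27ac libraries of 500 nM overlapped those of DMSO. Per kilobase of the peak, the mean DMSO level was 11.4 CPM in the peak that ends at the start. It was 8.32 in the most abundant inner peak, 3.98 in the one with the largest difference and 5.72 in the third. The peak that ends at the listed start (chr17:64129473-64130144) had 5.52 and 9.83 CPM with DMSO, against 4.67 and 6.79 with 150 nM and 8.29 and 11.5 with 500 nM. The peak just upstream of it (chr17:64130424-64130749) had 4.83 and 2.61 CPM in the DMSO libraries, 2.97 and 3.58 in those of 150 nM and 4.71 and 5.28 in those of 500 nM, and the next one (chr17:64131285-64131587) had 2.53 and 1.00 CPM with DMSO, against 2.55 and 1.13 with 150 nM and 3.01 and 1.56 with 500 nM. In both, DMSO replicate 1 was above 1 of the 500 nM libraries. The 500 nM libraries were above both of 150 nM in the peak that ends at the start and in the one just upstream, and not in the next one. The peak 8895 to 9151 bp inside the gene (chr17:64120993-64121249) had 1.38 and 1.00 CPM in the DMSO libraries, 2.34 and 1.13 in those of 150 nM and 1.13 and 3.13 in those of 500 nM, with 1 of its 500 nM libraries inside the DMSO range. Of the 7 kept ERN1 peaks all 7 had a log2 fold change above 0 at 500 nM, from 0.35 to 1.77. The inner peak with the largest difference rested on a mean of 45 counts per library, the most abundant on 219.5 and the third on 23.3. The 4 outside the inner stretch rested on means of 8.33 to 39 counts per library, and 2 of them went below 0 in an alternative: chr17:64120993-64121249 turned from 0.83 to -0.063 without 500 nM replicate 2, and chr17:64131285-64131587 from 0.41 to -0.14 without 500 nM replicate 1 and to -0.13 without DMSO replicate 2. In the 100000 bp on either side of ERN1, 11 other H3K27ac peaks were tested; 8 had a log2 fold change above 0, the median was 0.13, the highest 0.45, and 0 reached 1.

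**Figure D3:**
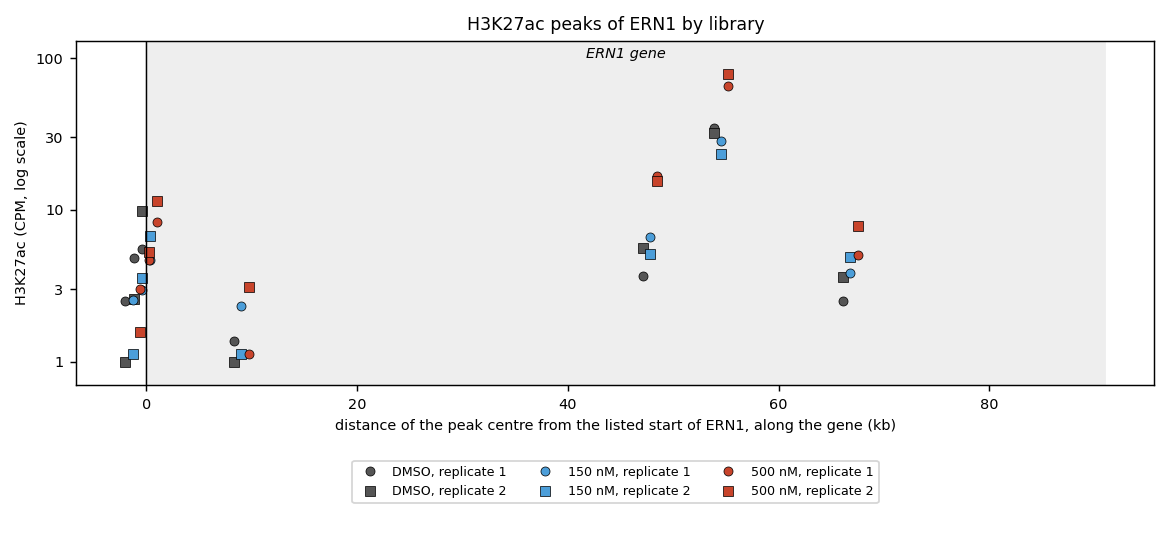
H3K27ac level (CPM, log scale) in the 7 kept peaks of ERN1 against the distance of the peak centre from the listed start, with the gene shaded; circles are replicate 1 and squares replicate 2 of each treatment, set slightly apart sideways by treatment. The 500 nM libraries are the highest in the 3 peaks 47 to 67 kb inside the gene and overlap the DMSO libraries in the 4 peaks nearer the start.

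The pattern of the most changed ERN1 peak over the 6 libraries was compared with 27017 other tested H3K27ac peaks of more than median abundance, by the Euclidean distance of log2 CPM centred on each peak. The nearest peaks touching a gene were in AOPEP (distance 0.63), PDE2A (0.66) and PLEKHA7 (0.72), and the most abundant ERN1 peak was at 0.94. The AOPEP peak had 4.14 and 5.01 CPM with DMSO, against 4.46 and 4.71 with 150 nM and 11.9 and 10.6 with 500 nM. The likeness describes 6 libraries and carries no test.

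In the other 9 genes, 29 H3K27ac peaks were tested and edgeR called 0 at 500 nM against DMSO, with 5 at an unadjusted p under 0.05 and 0 called by DESeq2. The background was 0.923% of 54037 tested peaks called and 11.5% at an unadjusted p under 0.05. The log2 fold changes were above 0 in 24 of the 29, with a median of 0.17 against -0.0040 over all tested peaks. The start peak of DDIT3 (chr12:57519094-57520543) had 34.7 and 38.7 CPM in the DMSO libraries, 25.9 and 30.5 in those of 150 nM and 49.5 and 51.8 in those of 500 nM. It was highest at 500 nM and lowest at 150 nM, with a log2 fold change of 0.46 ± 0.13 against DMSO (edgeR adjusted p = 0.0826).

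The peaks next nearest to the threshold lay at HSPA5 and ATF4. The HSPA5 peak just upstream of the start (chr9:125241617-125242509, over HSPA5-DT) had 15.6 and 20.5 CPM with DMSO, against 23.2 and 27.5 with 150 nM and 27.3 and 25.8 with 500 nM, a log2 fold change of 0.55 ± 0.17 (edgeR adjusted p = 0.12). The ATF4 start peak (chr22:39518917-39522277) had 77.5 and 79.6 CPM in the DMSO libraries, 74.8 and 100.5 in those of 150 nM and 102.7 and 99.0 in those of 500 nM, a log2 fold change of 0.36 ± 0.11 (edgeR adjusted p = 0.12). At HSPA5 both doses were above DMSO; at ATF4 150 nM replicate 1 lay with DMSO and replicate 2 with 500 nM. These 3 peaks were called when either 150 nM library was left out, and in the fit of the 4 libraries alone. The part of the difference between the 150 nM libraries in these values was not tested.

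The remaining genes gave wider or smaller differences. The ATF6 start had 13.1 and 18.1 CPM with DMSO, against 18.5 and 13.8 with 150 nM and 19.8 and 18.8 with 500 nM, with overlapping DMSO and 150 nM libraries. The largest EIF2AK3 peak lies 17625 to 23677 bp inside the gene, overlaps no H3K4me3 peak, and had 71.0 and 59.4 CPM in the DMSO libraries, 74.4 and 43.5 in those of 150 nM and 75.5 and 70.4 in those of 500 nM. The 150 nM libraries of EIF2AK3 were the farthest apart, 1 of them below all DMSO libraries. The HSP90B1 peak upstream of the start had 17.9 and 20.3 CPM with DMSO, against 24.6 and 23.4 with 150 nM and 27.3 and 23.5 with 500 nM, so both doses were above DMSO and overlapped each other. At DNAJB9 the values were 78.2 and 81.8 CPM in the DMSO libraries, 80.1 and 84.8 in those of 150 nM and 92.7 and 82.3 in those of 500 nM. HERPUD1, whose H3K4me3 rose, had 84.1 and 98.5 CPM of H3K27ac over its start with DMSO, against 86.9 and 111.8 with 150 nM and 98.5 and 102.5 with 500 nM, so its 500 nM libraries lay within the range of the others (log2 fold change 0.14 ± 0.11, edgeR adjusted p = 0.69). The most abundant DDIT3 peak is the one over MBD6, with 100.9 and 113.5 CPM in the DMSO libraries, 93.5 and 92.2 in those of 150 nM and 104.7 and 109.5 in those of 500 nM.

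**Figure D4:**
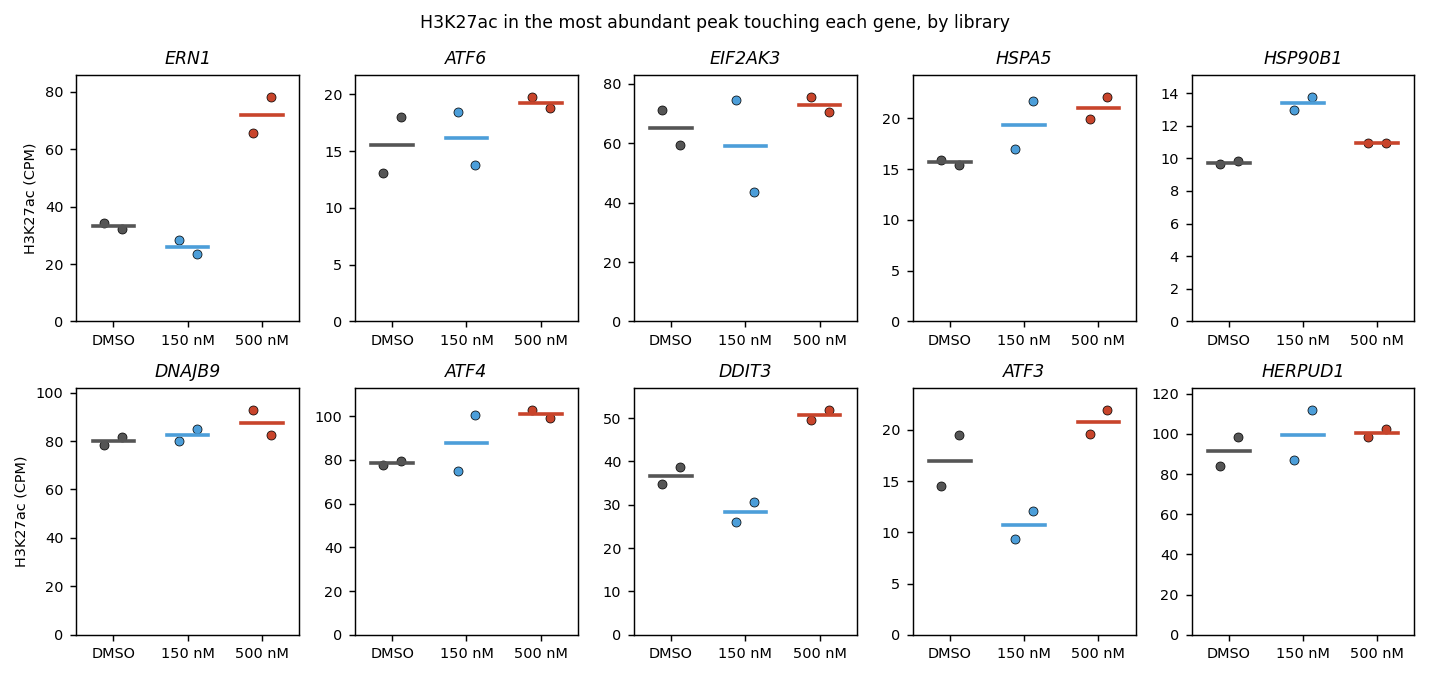
H3K27ac level (CPM, vertical axis from 0) in the most abundant peak touching each of the 10 genes, for DMSO, 150 nM and 500 nM JIB-04; points are the 2 libraries of a group and lines their means. ERN1 (shown without a test), DDIT3 and ATF3 are highest at 500 nM and lowest at 150 nM, and the 150 nM libraries of EIF2AK3, ATF4 and HERPUD1 lie far apart.

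At 150 nM against DMSO, edgeR called 0 of the 29 H3K27ac peaks, with 7 at an unadjusted p under 0.05 and 0 called by DESeq2, beside a background of 0.00185% called and 3.94% at an unadjusted p under 0.05. Without 150 nM replicate 1, 2 were called, the inner EIF2AK3 peak lower (log2 fold change -0.56) and the ATF4 start higher (0.37). Between the doses, 2 of 29 were called, both higher at 500 nM, beside a background of 1.27% (1.09% higher). DDIT3 at its start had a log2 fold change of 0.84 ± 0.14 (edgeR adjusted p = 4.90e-05), called in 15 of 15 alternatives. The main ATF3 peak (chr1:212607745-212609510) had 14.5 and 19.5 CPM with DMSO, against 9.35 and 12.1 with 150 nM and 19.6 and 21.9 with 500 nM, a log2 fold change of 0.94 ± 0.20 between the doses (edgeR adjusted p = 0.00308). ATF3 at 150 nM was the lowest of the groups, and at 500 nM it was just above DMSO. The ATF3 call was lost without 500 nM replicate 2 and with DESeq2, which leaves a count of 1, and the count was 4 without 150 nM replicate 1. Thus DDIT3 and ATF3 were higher at 500 nM than at 150 nM in both marks.

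A further 40 genes of the pathway were counted in 4 lists, and 38 of the 40 had a tested peak. Of their 58 H3K4me3 peaks, 11 were higher and 9 lower at 500 nM against DMSO, 19.0% and 15.5%, beside 20.7% and 18.7% over all peaks. The list of genes downstream of PERK and ATF4 holds TRIB3, CHAC1, PPP1R15A, ASNS, DDIT4, SESN2, CEBPB and NUPR1, of which NUPR1 had no tested peak. Of its 8 H3K4me3 peaks 7 were higher and 1 lower, the largest share called in the 4 lists. The median log2 fold change was 0.44 against -0.0063 over all tested peaks. The 7 peaks with a mean of at least 50 CPM held 6 higher and 1 lower, with a median of 0.37. Over all 8378 peaks of that abundance 7.28% were higher and 28.1% lower, with a median of -0.05.

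CHAC1, which degrades glutathione, had 106.0 and 112.5 CPM of H3K4me3 in the DMSO libraries, 104.0 and 107.2 in those of 150 nM and 165.9 and 169.6 in those of 500 nM (log2 fold change 0.62 ± 0.04, edgeR adjusted p = 5.70e-21). PPP1R15A (GADD34), which reverses the block on translation, had 77.6 and 73.6 CPM with DMSO, against 75.3 and 74.7 with 150 nM and 110.1 and 118.7 with 500 nM (0.59 ± 0.04, edgeR adjusted p = 6.58e-17). Both were picked out after their values were seen. The largest rise by fold in this list was an inner, low peak of ASNS (asparagine synthetase), from 4.65 and 3.54 CPM to 10.2 and 10.2, with 4.48 and 5.21 at 150 nM (1.30 ± 0.18, edgeR adjusted p = 3.14e-08). The fall was at DDIT4, an inhibitor of mTORC1 signalling, from 259.3 and 278.1 CPM to 217.8 and 223.5, with 284.1 and 281.8 at 150 nM (-0.28 ± 0.03, edgeR adjusted p = 4.65e-11). In H3K27ac, 5 of 15 peaks of the list were higher and 0 lower beside a background of 0.692% and 0.231%: one each of TRIB3, CHAC1, PPP1R15A, SESN2 and CEBPB. The largest was at SESN2, upstream of the start, from 2.99 and 5.01 CPM to 9.04 and 9.58, with 3.40 and 3.39 at 150 nM (1.19 ± 0.30, edgeR adjusted p = 0.0287). That H3K27ac count was 0 without DMSO replicate 1, without DMSO replicate 2, without 500 nM replicate 2 and with DESeq2, 1 without 500 nM replicate 1, and 8 without either 150 nM library.

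The list of folding genes, 14 chaperones and oxidoreductases of the endoplasmic reticulum, had 2 higher and 5 lower of 27 H3K4me3 peaks and a median log2 fold change of -0.05. Its 21 peaks with a mean of at least 50 CPM held 1 higher and 5 lower, with a median of -0.0512. All tested peaks of that abundance had 7.28% higher and 28.1% lower, with a median of -0.0527. Over all tested H3K4me3 peaks 20.7% were higher and 18.7% lower, and whether this list or the next 2 differed from that was not tested. CRELD2 held both its largest rise, in an inner peak (0.72 ± 0.15, edgeR adjusted p = 5.43e-05), and its largest fall, over the start shared with ALG12 (-0.25 ± 0.04, edgeR adjusted p = 3.35e-07). The count of 7 was 4 without DMSO replicate 2 and with loess offsets, and 3 with DESeq2. The list of degradation and translocation genes had 1 higher and 1 lower of 13: DERL3, of the degradation machinery, in a peak shared with SMARCB1 (0.34 ± 0.12, edgeR adjusted p = 0.0178) and SYVN1, a ubiquitin ligase (-0.11 ± 0.03, edgeR adjusted p = 0.00211). Leaving out DMSO replicate 2 or 500 nM replicate 1, or loess offsets, gave a count of 1 in place of 2, and DESeq2 gave 0. The list of genes close to the sensors had 1 higher and 2 lower of 10. The higher one was XBP1, whose mRNA ERN1 splices, with 37.9 and 36.3 CPM in the DMSO libraries, 37.0 and 39.6 in those of 150 nM and 55.4 and 55.4 in those of 500 nM (0.57 ± 0.06, edgeR adjusted p = 1.25e-11). XBP1 and ERN1 were thus both higher at 500 nM over their starts. The largest fall of that list was an inner peak of EIF2AK4, another kinase of the same substrate as PERK, from 13.3 and 10.9 CPM to 6.72 and 5.11, with 12.1 and 9.77 at 150 nM (-1.03 ± 0.16, edgeR adjusted p = 5.41e-07). In H3K27ac these 3 lists had 1 peak called of 124, beside a background of 0.923% of all tested peaks. It was at SEC61B, a subunit of the translocation channel, in a peak shared with ALG2 (0.49 ± 0.13, edgeR adjusted p = 0.0388). That call was lost without either DMSO library, without either 500 nM library and with DESeq2, and the list had 3 calls without either 150 nM library.

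**Figure D5:**
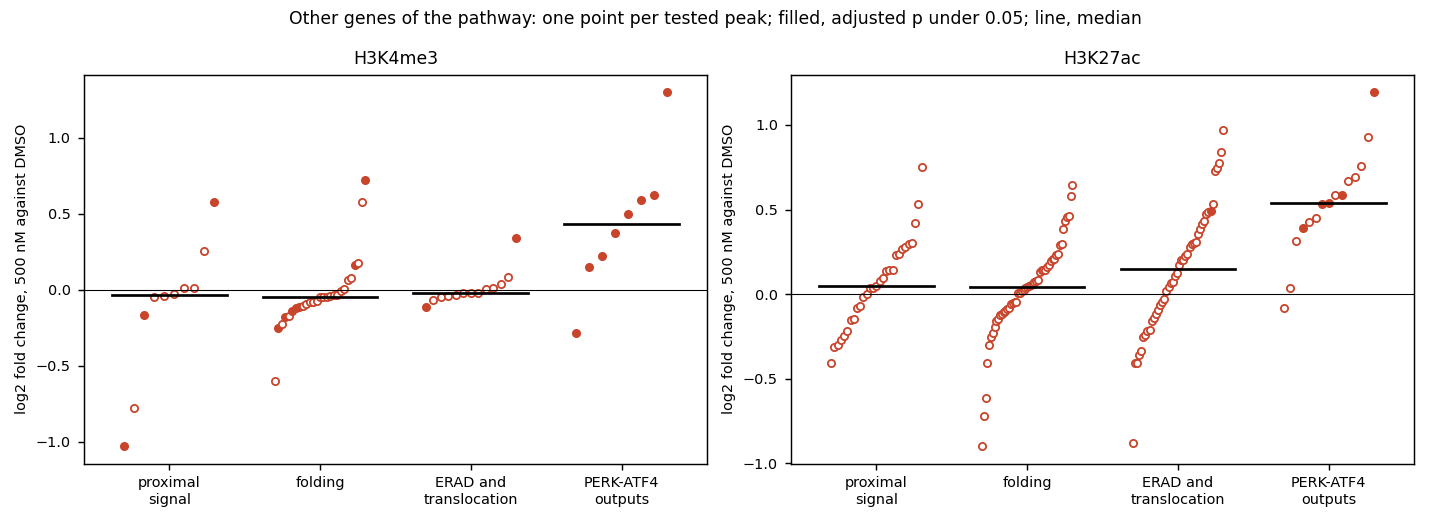
Log2 fold change of 500 nM against DMSO (vertical axis) for each tested H3K4me3 peak (left) and H3K27ac peak (right) of the 4 lists, 1 point per peak in order of value, filled where the adjusted p was under 0.05, with the median as a line. The median of the list downstream of PERK and ATF4 is 0.44 for H3K4me3 and 0.54 for H3K27ac, and those of the other 3 lists lie between -0.05 and 0.15.

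The elements searched above were also found in list genes with a listed start: ERSE in CALR, CANX, CRELD2, ERO1B, PDIA6 and XBP1, ERSE-II in HYOU1 and SDF2L1, the core element in HYOU1, the composite element in ASNS and CHAC1, and the cyclic AMP response element in PPP1R15A, out of 36 genes. Just inside the distance limit of 5000 bp lay an H3K27ac peak of ATF4 4043 bp away (log2 fold change 0.10), and just outside it an H3K4me3 peak 5358 bp from ATF4 (-0.14) and one 5885 bp from ATF3 (0.08).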

How the data were processed

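The data were ChIP-seq read counts per consensus peak for H3K4me3 and H3K27ac, 6 libraries each (2 per treatment), of a series of 30 libraries; input, H3K9me2 and H3K9me3 were not used here. Per the file headers, the authors made these counts with featureCounts 2.0.1, unstranded, counting a read in every peak that held at least a fraction of 0.2 of it, and the deposited counts were not normalized. The submitters' processing notes name Trim Galore 0.6.7, BWA 0.7.17-r1188, Picard 2.27.4, MACS2 2.2.7.1 and GRCh38; how the consensus peaks were made is not given in the sources used here. The header carries the paired-read option, yet the labels describe 50 bp single-end sequencing, and whether reads or fragments were counted is unsettled.

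Coordinates are the deposited ones with 1 added to the start, since the lowest deposited start is 0. Gene positions, start sites and promoter sequences are from RefSeq (GRCh38.p14); all 10 genes matched, with 13 promoter windows. Whether a peak lies in an exon or intron was not analysed here. One marker gene of the lists is not reported here.

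All 6 libraries of a mark entered 1 edgeR 4.0.16 fit in R 4.3.3 (filterByExpr by group, TMM, glmQLFit, glmQLFTest), with Benjamini-Hochberg adjustment over all tested peaks at 0.05; each SE was derived from the F statistic. CPM is relative to reads in tested peaks, so a change of all peaks alike is not measured. Each SE covers counting error and the spread between these libraries as estimated in the fit, from reads without molecular identifiers. The steps were tested on simulated data. The genes, lists and tests were chosen with earlier results of these data known. By rule, the text names all 10 genes, gives library values for each gene's most abundant tested peak per mark, each called peak and each ERN1 H3K27ac peak kept, and names the largest rise and fall per list and mark.

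The alternatives tried were DESeq2-type (RLE) size factors, total-count scaling, loess offsets on abundance, no filter, a mean count of at least 50, a replicate block, fits to the 4 libraries of a contrast, leaving out each library, DESeq2 1.42.0, distances of 0 and 10000 bp, and, for H3K27ac, a term for a split of the libraries known from earlier work. Counting the 150 nM H3K4me3 libraries as 1 sample, and the counts of the 4 lists under these settings, were added after seeing the data. Figures were drawn with matplotlib 3.10.9.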

Additional observations from a re-analysis of the deposited data

How the results depend on the processing

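With DESeq2, the count of called H3K4me3 peaks of the 10 genes was 4 for 500 nM against DMSO and 4 for 500 nM against 150 nM, and the count of H3K27ac peaks between the doses was 1. Leaving out 1 library gave 5 to 7, 0 to 0 and 4 to 8 H3K4me3 calls for 500 nM against DMSO, 150 nM against DMSO and 500 nM against 150 nM, and 0 to 3, 0 to 2 and 1 to 4 H3K27ac calls. For H3K27ac at 500 nM against DMSO the replicate block gave 3 calls, the term for the split of the libraries 3 and the 4 libraries alone 3. The H3K27ac count of the list downstream of PERK and ATF4, 5 as reported, was 3 with a mean count of at least 50, 8 under the replicate block, 8 with the 4 libraries alone, 0 with DESeq2, and 0 to 8 with 1 library left out. The sign changed, by more than the spread between replicates or past the threshold, in 3 log2 fold changes: with 1 library left out, the ERN1 H3K27ac peak at chr17:64120993-64121249 ranged from -0.063 (without 500 nM replicate 2) to 1.39 at 500 nM against DMSO and from -0.052 (without 150 nM replicate 1) to 0.97 at 150 nM against DMSO, and ATF4 H3K4me3 between the doses was 0.0070 with loess offsets. Of 1326 values of single peaks under an alternative, 1238 kept their direction and side of the threshold, or moved by less than the spread. The cause of these differences was not tested.

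The labels do not say whether libraries of the same replicate number belong together. Their deviations from the group means correlated between groups by 0.0047 to 0.049 in H3K4me3 and by 0.0026 to 0.13 in H3K27ac. The highest value was that of DMSO with 150 nM in H3K27ac. At 500 nM against DMSO the replicate block gave 8 H3K4me3 calls of the 10 genes in place of 7. In H3K27ac it gave 3 calls of the other 9 genes in place of 0.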
